A study of Mus musculus with 38 samples.

Results

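The interferon-induced genes described here are the 7 mouse genes Ifi27l2a, Trim30a, Ifit1, Ifit3, Isg15, Irf7 and Usp18. They were chosen with the values known of a single array of testis RNA, taken 24 h after 2.5 mg testosterone propionate. All but Ifit1 stood high on that array. The rule took the probes annotated to these symbols and let the probe with the highest mean stand for its gene. Of the 7 genes, 6 were measured among the 15128 genes tested. The probe for Ifit1 lay below the background threshold on all 38 arrays, at intensities of 61.03 to 84.57 against a threshold of 103, and gives no level. On the 2.5 mg 24 h array it read 80.51. The genes were selected on the values of the 2.5 mg 24 h array, so these values are described below without a test.

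Testes of LuRKO mice, which lack a functional receptor for luteinizing hormone, and of their wild-type littermates were measured on 38 single-colour bead arrays in 20 groups. The RNA of an array came from the testes of 2 animals, pooled, and 18 groups had 2 such arrays, labelled A and B. A single array stood for LuRKO at day 27 (replicate A) and for 2.5 mg at 24 h (replicate B). Untreated wild-type and LuRKO testes were taken at days 3, 8, 13, 19 and 27, with birth as day 1. All injected animals were LuRKO and received a single intraperitoneal injection at day 19. In the time series the dose was 2.5 mg testosterone propionate and testes were taken after 2, 4, 8, 12, 24 and 48 h. In the dose series testes were taken at 24 h after vehicle, 250 ng, 2.5 µg or 25 µg. The LuRKO deletion is constitutive and was carried by untreated, vehicle and testosterone groups alike, so no wild-type testis was injected. In whole testis RNA, fewer cells of a type and less RNA per cell cannot be told apart.

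Of 45281 probes, 23908 to 23944 passed the background threshold on an array, and the median intensity was 108.1 to 108.3. Normalization by the authors sets both ranges, which are no measure of RNA quality. Replicate arrays correlated at 0.9902 to 0.9963, and no pair held identical values. The testis markers Sox9 (Sertoli cells), Acta2 (peritubular cells), Ddx4 and Dazl (germ cells) were above background on all 38 arrays. The array labelled vehicle replicate A stood apart from replicate B. Its levels were 10.92 against 8.15 for Rhox5, an androgen-responsive Sertoli cell gene, 10.91 against 7.43 for Cyp17a1 and 12.34 against 9.23 for Insl3, both Leydig cell genes (log2 intensity). Its age label also reads day 19 plus 34 h where its time label reads 24 h. Comparisons that rest on it are given without it too, a choice made after its values were seen.

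Interferons are secreted proteins that cells release on sensing viral or misplaced nucleic acid. Type I interferons act through the receptor Ifnar1 and Ifnar2 and transcription factors such as Stat2 and Irf9, which bind the interferon-stimulated response element in promoters and raise a large set of antiviral genes. In rodents, Leydig, Sertoli and peritubular cells and testicular macrophages are all known to make or answer interferon, while germ cells respond little. Ifit1, Ifit3, Ifi27l2a and Trim30a are effectors, Isg15 is a ubiquitin-like modifier, Usp18 is the protease that removes it, and Irf7 is a transcription factor of the interferon genes themselves.

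RefSeq promoter windows of GRCm38.p6, running from 250 bases before to 50 bases after a gene's start, were present for Isg15, Ifit3, Ifit1, Irf7 and Trim30a, the last with 2 starts. They were searched on both strands for the core of the interferon-stimulated response element, GAAANNGAAA, which reads TTTCNNTTTC on the other strand. The core was found for 4 of the 5 genes and for 3.99% of all 27025 genes with a window (3.44% of all 32851 windows). With only the bases before the start it was found for the same 4 genes and for 3.46% of all genes (2.98% of windows). Isg15 held 3 overlapping matches, between 78 and 57 bases before the start, Ifit3 held 2 and Ifit1 held 2, and the Irf7 window held none. The gamma-activated site TTCNNNGAA, which is its own reverse complement, was found for none of the 5 genes and for 9.55% of all genes (8.3% of all windows). The 250 bases before the start are shown for 4 measured genes, 3 with a match and Irf7 without, with matches in capitals. They lie at chr4:156200819-156201068 (minus strand) for Isg15, chr19:34583279-34583528 (plus strand) for Ifit3, chr7:104465194-104465443 (minus strand) for the first listed start of Trim30a, and chr7:141266425-141266674 (minus strand) for Irf7.
Isg15: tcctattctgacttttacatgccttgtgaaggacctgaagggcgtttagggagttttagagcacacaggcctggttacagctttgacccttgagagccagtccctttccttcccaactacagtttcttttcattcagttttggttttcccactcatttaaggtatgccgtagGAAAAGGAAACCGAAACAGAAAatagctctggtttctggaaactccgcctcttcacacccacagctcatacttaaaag
Ifit3: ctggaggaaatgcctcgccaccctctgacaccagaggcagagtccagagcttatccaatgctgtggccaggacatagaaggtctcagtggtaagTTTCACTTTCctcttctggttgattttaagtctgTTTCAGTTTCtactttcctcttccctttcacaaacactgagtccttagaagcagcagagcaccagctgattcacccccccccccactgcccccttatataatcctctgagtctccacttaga
Trim30a: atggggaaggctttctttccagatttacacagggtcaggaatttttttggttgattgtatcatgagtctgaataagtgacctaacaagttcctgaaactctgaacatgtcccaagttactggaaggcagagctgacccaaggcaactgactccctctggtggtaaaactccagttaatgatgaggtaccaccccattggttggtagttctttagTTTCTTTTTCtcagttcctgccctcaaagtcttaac
Irf7: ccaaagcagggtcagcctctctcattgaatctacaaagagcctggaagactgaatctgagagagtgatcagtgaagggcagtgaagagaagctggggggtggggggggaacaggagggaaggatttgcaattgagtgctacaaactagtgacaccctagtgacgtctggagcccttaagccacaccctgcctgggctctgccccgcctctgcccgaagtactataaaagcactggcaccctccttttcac
A match is a description of these letters, not of a bound site.

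On the 2.5 mg 24 h array all 6 measured genes stood above every other array of the series. Over all genes tested, 378 of 15128, or 2.5%, were highest on that array. All 6 were also at least 2-fold above the mean of the 4 control arrays, which are the 2 untreated day 19 LuRKO and the 2 vehicle arrays. This held for 0.575% of all genes in the higher direction and for 0.271% in the lower. Without vehicle replicate A among the controls it held for 105 and 67 of all 15128 genes. Both counts of the set are fixed in large part by how the genes were chosen. The 10 genes that stood furthest above the controls on that array were Rhox5, Ifi27l2a, Drd4, Ifit3, Plac8, Psmd8, Usp18, Ampd3, Cldn23 and Kcnab1, so 3 of them are interferon-induced genes of the set. This ranking was made with vehicle replicate A among the controls and is not given without it.

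**Figure D1:**
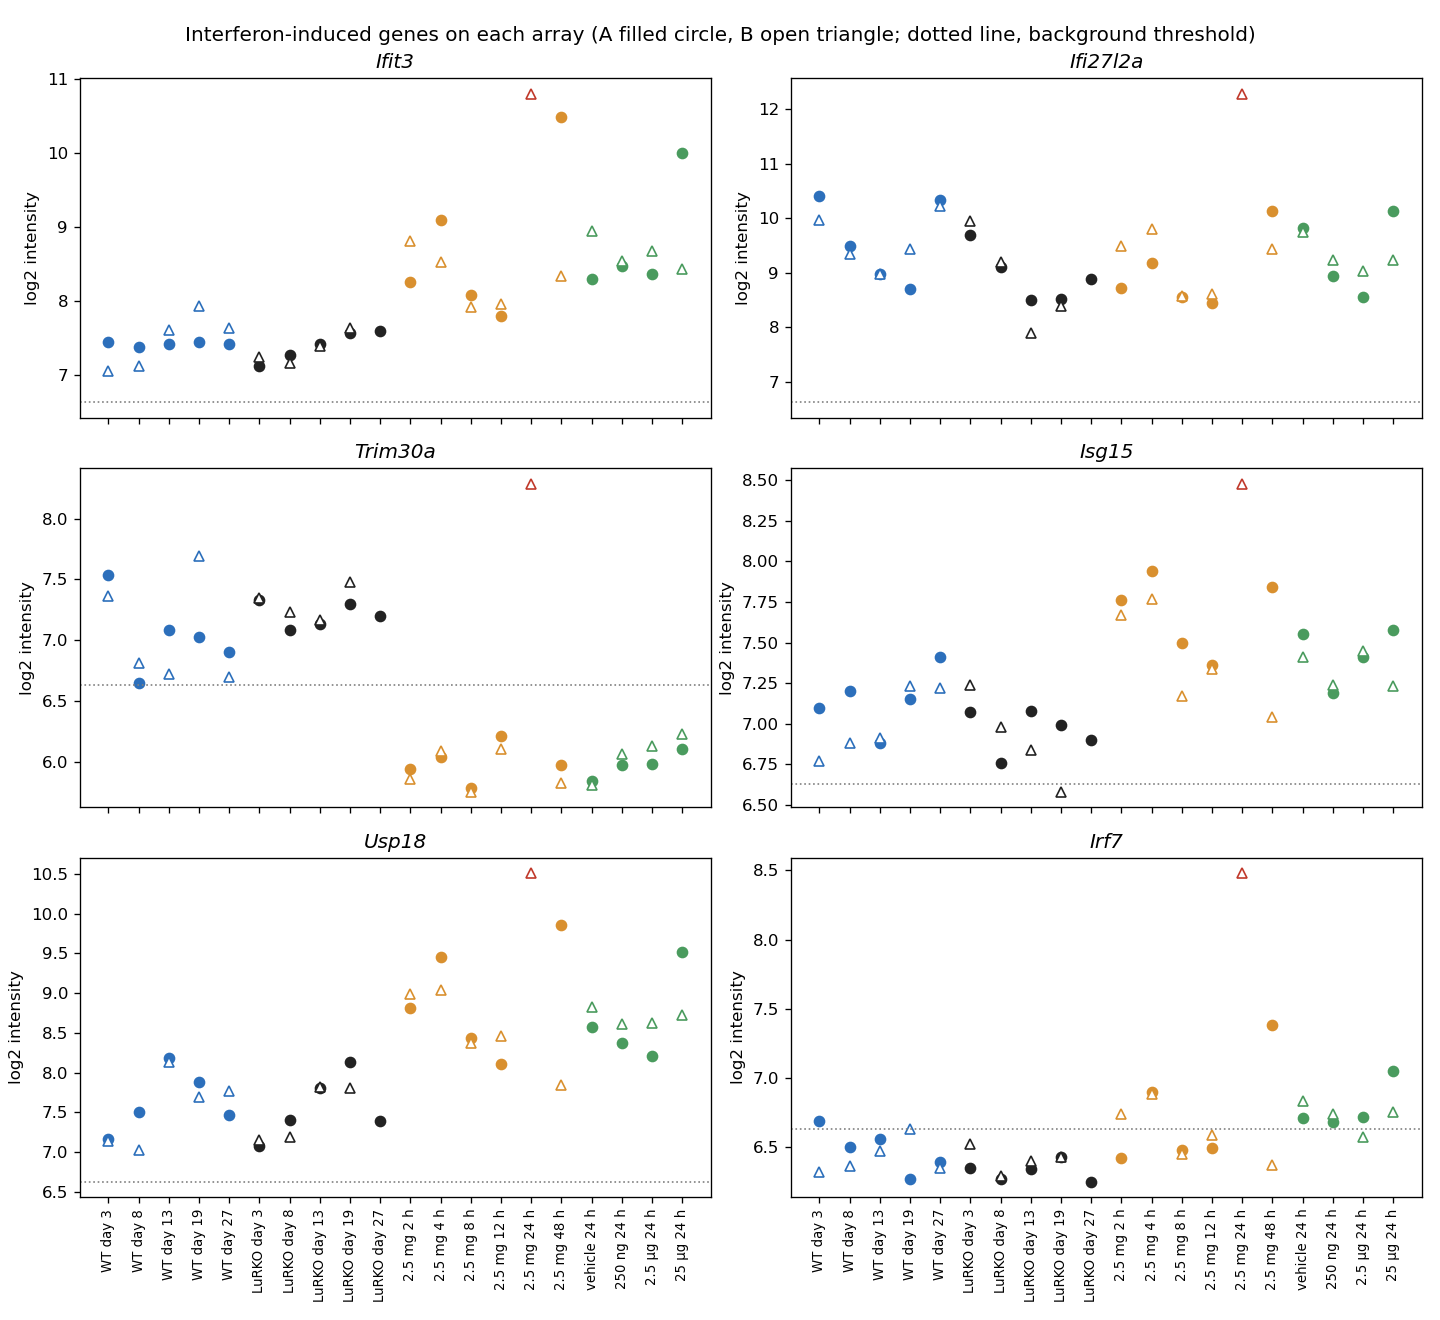
Log2 intensity (vertical axis) of the 6 measured genes in the 20 groups (horizontal axis), with each point 1 array of 2 pooled animals and the dotted line at the background threshold of 6.63. The 2.5 mg 24 h array in red is the highest point of each panel, replicate A of 48 h and of 25 µg stand above their partners for Ifit3 and Usp18, and Trim30a lies below the threshold on the other 18 injected arrays.

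Ifit3, a tetratricopeptide repeat protein of the same family as Ifit1, had a log2 intensity of 10.80 on the 2.5 mg 24 h array. On the 19 development arrays it ranged from 7.05 to 7.93 with a median of 7.42. It read 8.26 and 8.81 at 2 h, 9.09 and 8.53 at 4 h, 8.08 and 7.92 at 8 h, 7.80 and 7.96 at 12 h, and 10.48 and 8.33 at 48 h. The arrays of 24 h and of 48 h replicate A were thus the highest, and the array of 48 h replicate B lay with the earlier times. In the dose series it read 8.30 and 8.95 with vehicle, 8.47 and 8.54 with 250 ng, 8.36 and 8.68 with 2.5 µg, and 10 and 8.43 with 25 µg. The 24 h array was 2.69 above the 4 controls on the log2 scale, a difference of 6.44-fold, and 1.59 above the mean of the 25 µg arrays. A second Ifit3 probe, above background on 20 arrays, had the same 3 highest arrays, namely 24 h, 48 h replicate A and 25 µg replicate A.

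Ifi27l2a, a small membrane protein of mitochondria and the nuclear envelope, had the highest level of its probe at 12.28 on the 24 h array. It was 3.16 above the 4 controls (8.91-fold), 3.82 above the untreated arrays and 2.49 above vehicle (2.54 above vehicle replicate B alone). Its next highest array was wild type day 3 replicate A, at 10.40, so it was 1.87 above any other array. At the other times it read 8.72 and 9.49 at 2 h, 9.18 and 9.81 at 4 h, 8.56 and 8.58 at 8 h, 8.45 and 8.61 at 12 h, and 10.14 and 9.43 at 48 h. With the lower doses it read 8.95 and 9.24 at 250 ng, 8.56 and 9.04 at 2.5 µg, and 10.14 and 9.24 at 25 µg, against 9.83 and 9.74 with vehicle. The injected arrays without the 24 h array spanned 8.45 to 10.14, inside the 7.90 to 10.40 of the development arrays.

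Trim30a, a tripartite motif protein that restrains NF-kB signalling in mouse macrophages, had another pattern. It was above background on all 19 development arrays, at 6.65 to 7.69, and on none of the other 18 injected arrays, at 5.75 to 6.23. On the 24 h array it read 8.29. This was at least 3.17-fold above vehicle, with or without vehicle replicate A, where its probe was not well above background, and 1.87-fold above untreated day 19 LuRKO testes. Of the 15128 genes, 5 were above background on all development arrays and on no other injected array, namely Fdx2, Hsd3b1, Smim3, Tmem25 and Trim30a. Of these 5, 2 were above background on the 24 h array, Smim3 and Trim30a. A wider group of 73 genes was higher on every development array than on all 18 injected arrays, and here the 24 h array was within the injected range or below it for 44, at the development level or above it for 15 and between them for 14.

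Isg15, the modifier, read 8.48 on the 24 h array, 1.35 above the 4 controls (2.54-fold). Its next highest level was 7.94 at 4 h replicate A, and it ranged from 6.58 to 7.41 over the development arrays. Usp18, which removes Isg15 from proteins and also dampens receptor signalling, read 10.51 on the 24 h array, 2.17 above the controls (4.5-fold). Its development arrays spanned 7.03 to 8.18 and the other injected arrays 7.84 to 9.86, with 48 h replicate A the highest of these and 48 h replicate B the lowest. Irf7 was above background on 13 of 38 arrays, of which 1 was a development array. It read 8.48 on the 24 h array, at least 3.6-fold above the untreated arrays, where it was not well above background, and 3.28-fold above vehicle (3.15-fold above vehicle replicate B alone). Its next highest array was again 48 h replicate A, at 7.38.

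Before comparing conditions, the replicate pools were set side by side. In 2 groups, genes of the set differed at least 2-fold between the pools. At 48 h this held for 3 of the 6 genes, and at 25 µg for 1, Ifit3. At 48 h replicate A exceeded replicate B by 2.15 for Ifit3, 2.02 for Usp18, 1.01 for Irf7, 0.79 for Isg15, 0.70 for Ifi27l2a and 0.14 for Trim30a (log2). Only 0.106% of all genes were at least 2-fold higher in A than in B there. At 25 µg replicate A exceeded replicate B by 1.56 for Ifit3, 0.90 for Ifi27l2a, 0.79 for Usp18, 0.36 for Isg15 and 0.30 for Irf7, and Trim30a was 0.13 lower in A. At least 2-fold higher levels in A were found for 0.0463% of all genes in this pair. A second, dimmer Usp18 probe, above background on 7 arrays, read 6.79 on both 25 µg arrays and thus did not show the difference there. At 48 h this probe read 6.95 in replicate A and 6.06, below background, in replicate B. In the other 16 groups no measured gene of the set differed 2-fold between pools.

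**Figure D2:**
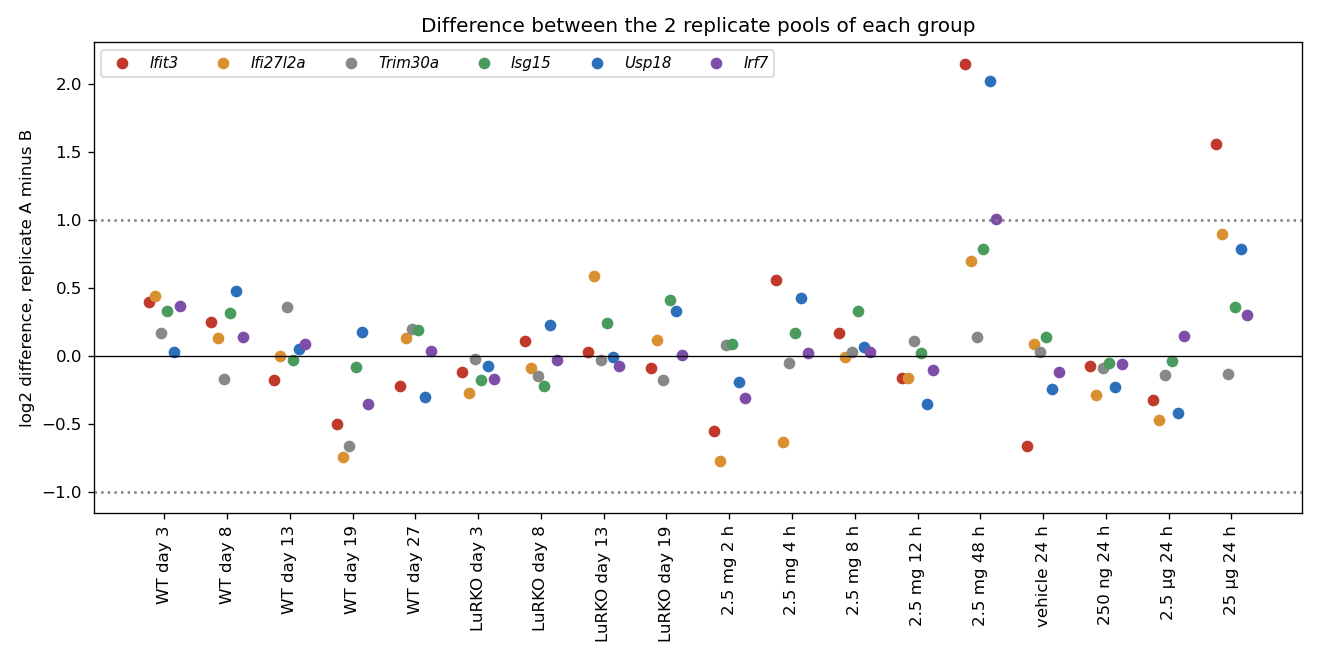
Log2 difference between replicate pools A and B (vertical axis) for the 6 measured genes, colour coded, in each of the 18 groups with 2 arrays (horizontal axis), with dotted lines at 2-fold. The pairs at 48 h and 25 µg hold the only points above 2-fold, with Ifit3 at 2.15 and 1.56.

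Over the 18 differences between pools, Ifit3 and Usp18 had a Pearson correlation of 0.89 and Ifit3 and Irf7 of 0.85. Without the 48 h and 25 µg pairs, over 16 differences, these were 0.59 and 0.63. Correlations over all pairs of the 6 genes ran from -0.03 to 0.89 over 18 differences and from -0.35 to 0.63 over 16, so the highest values rest largely on those 2 groups. Irf7 and Usp18 went from 0.77 to 0.13, and Usp18 with the mean of the other 5 genes from 0.78 to 0.24. With that mean Irf7 went from 0.89 to 0.70, Ifit3 from 0.89 to 0.60, Isg15 from 0.79 to 0.56 and Ifi27l2a from 0.68 to 0.51. Trim30a correlated at 0.19 with the mean of the other 5 genes over the 18 differences. Over the 37 arrays other than 2.5 mg 24 h, which share groups and normalization, its correlation with the other 5 was -0.66, against 0.70 for Ifit3 and 0.89 for Irf7. All of these are descriptions over arrays that also differ in condition.

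The 10 genes whose differences between pools most resembled the mean of the set were Cmpk2, H2-Q5, Oas2, Parp14, Eif2ak2, Irgm2, Ifitm3, Gbp3, Irf9 and Uba7, with correlations of 0.87 to 0.83 over 18 differences and of 0.70 to 0.40 over the 16 without the 48 h and 25 µg pairs. Over 37 arrays they were Gm4951, Oas2, Ifitm3, Lgals3bp, Sp100, Parp14, Ddx58, H2-Q5, Oas1g and Mx2, with correlations of 0.83 to 0.63, and 4 genes were on both lists. Among them are the RNA sensor Ddx58, the kinase Eif2ak2 that halts translation on double-stranded RNA, and Oas1g and Oas2 of the oligoadenylate synthetase family. Ifitm3, which blocks virus entry at membranes, read 13.08 on the 24 h array, 11.99 and 11.27 on the 48 h arrays and 12.00 and 11.42 on the 25 µg arrays. Oas2 read 8.46, 7.78 and 6.92, and 7.49 and 6.92 on the same arrays. Both genes thus had the 24 h array highest and replicate A above replicate B in both pairs.

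The wider interferon pathway was described on the 24 h array from lists of genes, against all genes tested, whose median difference from the 4 controls was 0.01. Among all genes 0.575% were at least 2-fold higher and 0.271% lower. Of 40 other interferon-induced effectors measured, 13 were at least 2-fold higher and 0 lower, with a median of 0.57. Ifitm3 (1.99 above the controls on the log2 scale), Lgals3bp (1.97), Oas1g (1.78) and Oas2 (1.58) were among them. Of 10 GTPases induced mainly by interferon gamma, which act against intracellular microbes, 5 were at least 2-fold higher and the median was 1.00, with Gbp3 at 1.92 and Irgm2 at 1.53. In the class I antigen presentation list 2 of 17 were at least 2-fold higher, B2m (1.12) and Psmb9 (1.42), with a median of 0.58. Of 19 receptor and signalling genes 2, the transcription factors Stat2 (1.29) and Irf9 (1.04), were at least 2-fold higher, and the median was 0.08. The probe for the receptor chain Ifnar1 was not above background on 2 arrays. Without vehicle replicate A among the controls the counts of these 4 lists were 13, 5, 3 and 2, with medians of 0.63, 1.01, 0.67 and 0.10. Among all 15128 genes 105 were then at least 2-fold higher and 67 lower.

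In the other lists, 0 of 11 nucleic acid sensors and 0 of 11 inflammatory NF-kB genes were at least 2-fold higher, with medians of -0.01 and 0.04. The sensor Ddx58, listed under a symbol that was not matched, is not among the 11 and stood 0.29 above the controls. Of 12 interferon genes with a probe, 9 were not above background on 2 arrays, Ifnb1 and Ifng among them, and 0 of the 3 others were at least 2-fold higher. Tnf, Il1b, Il6 and Cxcl10 were not above background on 2 arrays either. A low array signal does not show that an mRNA was absent.

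**Figure D3:**
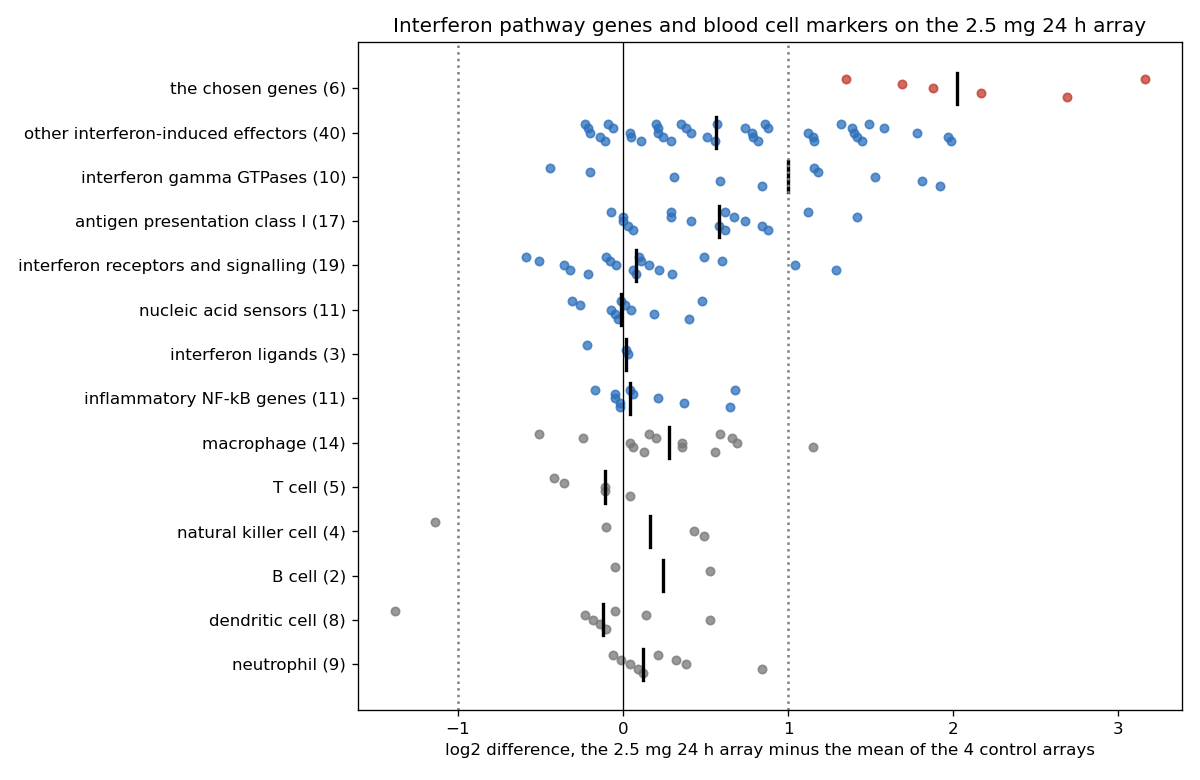
Log2 difference of the 2.5 mg 24 h array from the mean of the 4 control arrays (horizontal axis) for the measured genes of each list (rows, number measured in brackets), with each point 1 gene, the black bar the median and dotted lines at 2-fold. The chosen genes have a median of 2.03 by their choice, other effectors 0.57 and interferon gamma GTPases 1.00, while sensors, ligands and NF-kB genes centre near 0.

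The promoter core was counted in these lists as well. It was present for 18 of 44 effectors with a window (40.9%), for 9 of 10 interferon gamma GTPases, for 5 of 16 class I genes (31.2%) and for 6 of 13 interferon genes (46.2%). Of genes with a window, 3 of 20 receptor and signalling genes, 2 of 12 sensors and 2 of 17 NF-kB genes had it, against 3.99% of all 27025. Among measured genes outside the chosen set, 13 of 428 with the core (3.04%) and 51 of 11676 without it (0.437%) were at least 2-fold above the controls on the 24 h array. Without vehicle replicate A among the controls these were 13 (3.04%) and 64 (0.548%). Against all 4 controls the medians of the same 2 groups were 0.02 and 0.01.

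Markers of blood-borne and resident immune cells were set beside the 24 h values, where 0.575% of all genes were at least 2-fold higher than the controls and 0.271% lower. Of 14 macrophage markers 1, C1qb, was at least 2-fold higher on the 24 h array (1.15), with a list median of 0.28. Without vehicle replicate A among the controls 2 were, with a median of 0.37. Their summed intensity was 3919, against 2640 and 2213 on the untreated arrays, 4513 and 2795 on the vehicle arrays and 2653 to 3518 over the other times. Vehicle replicate A was thus the only control above the 24 h array. Of the T cell, natural killer cell, B cell, dendritic cell and neutrophil lists, 0 of 5, 0 of 4, 0 of 2, 0 of 8 and 0 of 9 markers were at least 2-fold higher. At least 2-fold lower were Prf1 of the natural killer list (-1.14) and Siglech of the dendritic list (-1.38). Of the genes with a probe in these lists, 3 of 8, 3 of 7, 2 of 4, 3 of 11 and 0 of 9 were not above background on 2 arrays, Cd8a, Ncr1, Pax5 and Xcr1 among them. Other defining markers were above it, Cd3e on 33 arrays, Klrb1c on 19, Cd79b on 19 and H2-Aa on 38. The natural killer sum was 2509 on the 24 h array against 4247 to 6759 over the controls and 2546 to 4882 over the other times. The median of its 4 markers was 0.17 above the controls, so sum and median went in opposite directions. The T cell sum was 3042 on the 24 h array against 3699 to 4074 over the controls, with a list median of -0.11. Its brightest marker on that array was Cd8b1, at 11.45, with Cd3d next at 7.45. A sum follows its brightest markers and does not count cells. The neutrophil sum was 645 on the 24 h array against 403 to 678 over the controls. At 48 h the macrophage sum was 3518 in replicate A and 3264 in replicate B, and at 25 µg it was 3328 and 2789. Red blood cell, vessel, Sertoli cell, Leydig cell, peritubular, meiotic and spermatid markers had 0 of 5, 0 of 10, 0 of 9, 0 of 7, 0 of 5, 0 of 6 and 0 of 7 members at least 2-fold higher on the 24 h array, and the Leydig cell gene Cyp11a1 was at least 2-fold lower (-1.08). Without vehicle replicate A among the controls these lists again had 0 members at least 2-fold higher, and 1 meiotic marker was at least 2-fold lower. The median of the red blood cell markers in replicate A minus replicate B was -1.09 at 25 µg and -0.26 at 48 h (log2). The part of these cells in the levels of the set was not tested.

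For the comparisons that do not use the 2.5 mg 24 h array, a linear model was fitted with limma across all genes, with Benjamini-Hochberg adjustment over all 15128. A gene is called at an adjusted p under 0.05. The design describes the replicates as biological, each a pool of 2 animals, and the p-values measure the spread between such pools, with the number of arrays limiting the precision.

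Through development, Ifi27l2a fell from day 3 to day 19 in both genotypes. Wild-type levels were 10.40 and 9.97 at day 3, 9.49 and 9.35 at day 8, 8.97 and 8.97 at day 13, 8.70 and 9.44 at day 19, and 10.34 and 10.22 at day 27. LuRKO levels were 9.69 and 9.95, 9.10 and 9.19, 8.50 and 7.90, 8.52 and 8.40, and 8.88 on the single day 27 array. The wild-type testis at day 27 was thus back in its day 3 range, and the LuRKO array was not. From day 3 to day 19 the wild-type change was -1.11 (SE 0.27, adjusted p = 0.00073) and the LuRKO change was -1.36 (SE 0.27, adjusted p = 8e-05). From day 3 to day 27 LuRKO levels fell by 0.94 (SE 0.34, adjusted p = 0.017), a call lost without LuRKO day 3 replicate B (adjusted p = 0.086).

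Usp18 rose in LuRKO testes from 7.08 and 7.15 at day 3 to 8.14 and 7.81 at day 19, by 0.86 (SE 0.33, adjusted p = 0.026). Adjusted p-values were 0.15, 0.094 and 0.069 without LuRKO day 19 replicate A, day 3 replicate A and day 3 replicate B. Trim30a fell in wild type from 7.54 and 7.36 at day 3 to 6.90 and 6.70 at day 27, by 0.65 (SE 0.15, adjusted p = 0.00024). Ifit3, Isg15 and Irf7 passed in none of the age comparisons, and Irf7 was near background throughout. Called were 1 of 6 genes for wild type day 19 against day 3, where 63.8% of all genes were called, 1 of 6 for wild type day 27 against day 3 (73.3%), 2 of 6 for LuRKO day 19 against day 3 (61.7%) and 1 of 6 for LuRKO day 27 against day 3 (59.6%).

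**Figure D4:**
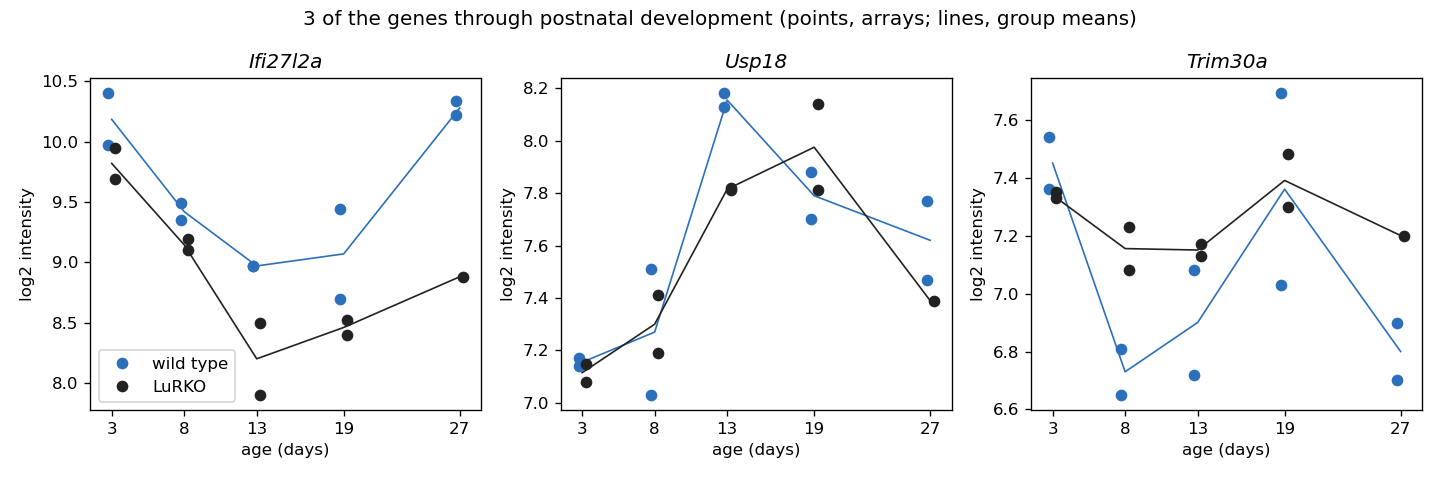
Log2 intensity (vertical axis) of Ifi27l2a, Usp18 and Trim30a against age in days (horizontal axis) in wild-type (blue) and LuRKO (black) testes, with points for arrays and lines through group means. Ifi27l2a lies lower in LuRKO at each age mean, with 8.88 against 10.34 and 10.22 at day 27.

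Loss of the luteinizing hormone receptor went with lower Ifi27l2a. At day 27 the difference was -1.40 (SE 0.34, adjusted p = 8e-04), which is 2.63-fold lower, with 1 LuRKO array below both wild-type arrays. Averaged over the 5 ages it was -0.68 (SE 0.13, adjusted p = 7.9e-05). At days 13 and 19 alone the differences of -0.77 and -0.61 did not pass (adjusted p = 0.18 and 0.11), and at day 19 the difference passed without wild type replicate A (-0.98, adjusted p = 0.038). Trim30a was higher by 0.20 averaged over ages (SE 0.07, adjusted p = 0.018), a call lost without wild type day 13 replicate B (adjusted p = 0.059) or day 19 replicate A (adjusted p = 0.067). The set had 2 of 6 genes called in the average, where 45.4% of all genes were called, and 1 of 6 at day 27, where 55.2% were. At days 3, 8, 13 and 19 it had 0 of 6 called, against backgrounds of 8.24%, 0.0463%, 1.74% and 23.2%. Unadjusted p-values under 0.05 at these ages were obtained for 3289, 1263, 1878 and 5354 of all genes, and in the set for Trim30a at day 8, Ifi27l2a at days 13 and 19 and Isg15 at day 19. Trim30a at day 8 differed by 0.43 (SE 0.15, adjusted p = 0.37).

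The change of the genotype difference with age passed for 0 of 6 genes from day 3 to day 19 (17.2% of all genes) and for 0 of 6 from day 3 to day 27 (47.4%). For Ifi27l2a the latter was -1.03 (SE 0.43, adjusted p = 0.051), and it passed without wild type day 3 replicate A (-1.25, adjusted p = 0.033). In the average over ages 12 of 14 macrophage markers were called lower in LuRKO testes and 0 higher, with C1qb at -0.74 (SE 0.07, adjusted p = 4.4e-10). Of the 40 other effectors 9 were called higher and 2 lower. Over all 15128 genes 3818 were called higher and 3046 lower in this average. Xaf1, which binds an inhibitor of apoptosis, had a mean of 11.99 (log2) in wild type at day 27, the only group in which it was above background. It was at least 41-fold lower on the LuRKO array at that age (adjusted p = 2.7e-21).

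Injection without testosterone came with changes too. Vehicle at 24 h was compared with untreated day 19 LuRKO testes, groups that belong to different sets of arrays and differ by 1 day of age, so that injection, set and age cannot be told apart. Ifi27l2a was 9.83 and 9.74 against 8.52 and 8.40, a rise of 1.32 (SE 0.27, adjusted p = 0.0012), and without vehicle replicate A this was 1.28 (adjusted p = 0.015). Isg15 was 7.55 and 7.41 against 6.99 and 6.58, a rise of 0.70 (SE 0.18, adjusted p = 0.0094), and without vehicle replicate A this was 0.63 (adjusted p = 0.082). Without untreated replicate B, whose Isg15 probe was below background, it was 0.49 (adjusted p = 0.14). Ifit3 differed by 1.03 and Usp18 by 0.73 without passing (adjusted p = 0.091 and 0.15), and Irf7, below background on the untreated arrays, did not pass either (adjusted p = 0.25). Trim30a fell at least 1.69-fold (adjusted p = 1.7e-08, and 1.4e-06 without vehicle replicate A). Thus 3 of 6 genes were called where 14.1% of all genes were, with 2 higher (6.53% of all genes) and 1 lower (7.53%). Of 14 macrophage markers 4 were called higher in the same comparison, with C1qb at 1.01 (SE 0.14, adjusted p = 7.1e-06). Without vehicle replicate A 1 of the 6 genes was called higher and 1 lower, where 9.35% of all genes were called, and 4 macrophage markers were higher, with C1qb at 0.75 (SE 0.15, adjusted p = 0.0016).

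The times after 2.5 mg were each compared with the same 2 untreated arrays, which also enter the vehicle comparison, and with the same limit that set and group cannot be told apart. At 2 h Isg15 rose by 0.93 (SE 0.18, adjusted p = 0.00042) and Usp18 by 0.92 (SE 0.33, adjusted p = 0.047). Without any 1 of the 4 arrays compared, the Usp18 call at 2 h was lost, with adjusted p-values of 0.098 and 0.21 without 2 h replicate A or B and 0.076 and 0.22 without untreated replicate A or B. At 4 h 4 genes rose: Ifit3 by 1.21 (SE 0.40, adjusted p = 0.025), Ifi27l2a by 1.04 (SE 0.27, adjusted p = 0.0055), Isg15 by 1.07 (SE 0.18, adjusted p = 5.9e-05) and Usp18 by 1.28 (SE 0.33, adjusted p = 0.0048). The 4 h arrays lay above both untreated arrays for each of these genes. They did so for Irf7 too, which was not called (adjusted p = 0.067). The share of all genes separated in this way is not given here, so the separation adds nothing to the calls. Without 4 h replicate A the adjusted p was 0.18 for Ifit3 and 0.057 for Usp18, and without 4 h replicate B it was 0.15 for Ifi27l2a. Without untreated replicate A it was 0.1 for Ifit3, and without untreated replicate B it was 0.074 for Ifit3 and 0.052 for Usp18. At 8 and 12 h Isg15 alone was called higher, by 0.55 and 0.57 (SE 0.18, adjusted p = 0.031 and 0.032). The 8 h call was lost without 8 h replicate A and without untreated replicate B (adjusted p = 0.29 for each), and the 12 h call without 12 h replicate A (0.13), 12 h replicate B (0.12) or untreated replicate B (0.29).

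At 48 h Ifit3 rose by 1.81 (SE 0.40, adjusted p = 0.00099), Ifi27l2a by 1.33 (SE 0.27, adjusted p = 0.00044), Isg15 by 0.65 (SE 0.18, adjusted p = 0.0068) and Usp18 by 0.87 (SE 0.33, adjusted p = 0.044). These rested largely on replicate A. Without it Ifit3 differed by 0.73 (adjusted p = 0.15), Isg15 by 0.26 (adjusted p = 0.35) and Usp18 by -0.14 (adjusted p = 0.75), and Ifi27l2a was still called at 0.97 (adjusted p = 0.029). Without untreated replicate A the adjusted p of Usp18 was 0.067, and without untreated replicate B it was 0.21 for Usp18 and 0.13 for Isg15. Without 48 h replicate B Irf7 was called as well (adjusted p = 0.00012). Trim30a fell at least 1.69-fold at each of the 5 times, with adjusted p-values from 2.4e-09 to 3.8e-07.

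Genes of the set called higher numbered 2 of 6 at 2 h (11.1% of all genes), 4 of 6 at 4 h (15%), 1 of 6 at 8 h (11.2%), 1 of 6 at 12 h (7.75%) and 4 of 6 at 48 h (16.2%). Called lower was 1 of 6 at each time, against 9.95%, 12.5%, 9.76%, 8.77% and 15.9% of all genes. Of 40 other effectors 9, 14, 4, 2 and 8 were called higher at the 5 times in order and 2, 2, 2, 1 and 4 lower. Of the interferon gamma GTPases 4 of 10 were called higher at 4 h, with Gbp3 at 1.01 (SE 0.29, adjusted p = 0.011), and 0 at each other time. Macrophage markers called higher numbered 3, 4, 5, 5 and 7 of 14, and their part in these differences was not tested. With vehicle in place of the untreated arrays 0, 0, 1, 1 and 0 of 6 genes were called at the 5 times, the calls at 8 and 12 h being Ifi27l2a, with differences of -1.21 and -1.25. At 48 h 21.2% of all genes were called against vehicle. The shares at the earlier times are not given here, so no reading is drawn from these counts. Vehicle testes were taken only at 24 h, in another set of arrays, so time after injection and set differ here as well as dose. With vehicle replicate B alone as the control the Ifi27l2a differences at 8 and 12 h were -1.17 and -1.20.

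Set against vehicle, 2.5 mg at 48 h had 0 of 6 genes called, where 21.2% of all genes were called and 5013 had an unadjusted p under 0.05. The vehicle testes were taken at 24 h and belong to another set of arrays. Dose, time after injection, age and set thus cannot be told apart in this comparison. Without vehicle replicate A it was again 0 of 6, where 18.4% of all genes were called. Ifi27l2a, Trim30a, Isg15 and Irf7 differed by 0.00, 0.07, -0.04 and 0.11. Ifit3 differed by 0.78 (SE 0.40, adjusted p = 0.18), and by 0.46 without vehicle replicate A (adjusted p = 0.58). With replicate A of 48 h alone it differed by 1.86 (adjusted p = 0.001), and with replicate B alone by -0.29 (adjusted p = 0.66). Usp18 differed by 0.15, by 0.03 without vehicle replicate A, by 1.16 with replicate A alone (adjusted p = 0.0028) and by -0.86 with replicate B alone (adjusted p = 0.021), so the 2 pools of 1 group lay on opposite sides of vehicle.

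The lower doses at 24 h were compared with the same 2 vehicle arrays. None of the 6 genes passed limma's test at 250 ng, 2.5 µg or 25 µg, where 0.0595%, 0.0529% and 0.456% of all genes were called and 1478, 1465 and 1893 had an unadjusted p under 0.05. Unadjusted p-values under 0.05 within the set were those of Ifi27l2a at 250 ng and 2.5 µg (differences of -0.69 and -0.98) and of Trim30a, below background, at 25 µg. At 25 µg the differences were 0.59 for Ifit3 (SE 0.40, adjusted p = 0.59) and 0.42 for Usp18 (SE 0.33, adjusted p = 0.66). Without vehicle replicate A Ifi27l2a differed by -0.64 and -0.94 at 250 ng and 2.5 µg, and Ifit3 by 0.26 at 25 µg. The median difference of the 6 genes was -0.16, -0.12 and 0.24 in order of dose (-0.26, -0.30 and 0.17 without vehicle replicate A), beside 0.01, -0.01 and 0.00 for all genes. The 2.5 mg 24 h array exceeded the 25 µg mean by 2.59 for Ifi27l2a, 1.39 for Usp18 and 1.08 for Isg15. That step rests on 1 array, crosses sets of arrays and was not tested.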

How the data were processed

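Testis RNA on 38 Illumina single-colour bead arrays was analysed from the deposited table of probe intensities, linear values that the authors had already normalized and that were read with BeadStudio per the submitters' processing notes (version not given in the sources used here). Left out were the 76 columns of array signals in another table, of values before normalization, since their names match no sample label.

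The intensities were corrected with normexp (offset 50) and taken to log2 in limma 3.58.1 under R 4.3.3. The background threshold, an intensity of 103 (6.63 after correction, log2), was set from the mode of all values, 76.2, and the spread below it, with 0.01 of background probes allowed above. A single gene symbol was listed for 34885 of the 45281 probes, several for 18 and none for 10378. Symbols were updated through RefSeq gene tables. A probe was kept if above the threshold on at least 2 arrays, and each gene was represented by its brightest kept probe, which left 15128 genes. Where a gene was below the threshold on every array of 1 group, its fold is a bound (at least N-fold), computed with each array of that group at its lowest signal above the threshold, or at its own signal where higher.

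Groups came from the labels. The model (lmFit, eBayes) had 1 mean per group over the 38 arrays and left 18 residual degrees of freedom, to which moderation added 10.4. The single LuRKO day 27 array thus borrows the spread of the other groups. P-values had Benjamini-Hochberg adjustment over all genes, with calls under 0.05. The code was tested on simulated data. All 6 measured genes were tested in every comparison. In each list up to 4 called genes with the smallest p may be named, with the 10 genes furthest above the controls on the 2.5 mg 24 h array and the 10 most like the set over 37 arrays and over 18 differences between pools. List genes named there beyond these were picked after their values were seen. The genes and the lists were chosen with earlier results of these data known. The lists were other interferon-induced effectors, interferon ligands, receptors and signalling, nucleic acid sensors, interferon gamma GTPases, class I antigen presentation, inflammatory NF-kB genes, and markers of immune cells, red blood cells, vessels and testis cell types. Other settings tried were other background correction, scaling, probe choice and filters, a replicate block, arrays of the compared sets alone, other controls and leaving out each array.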

Additional observations from a re-analysis of the deposited data

How the results depend on the processing

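The number of the 6 genes called was recomputed under each other setting. With arrays of the compared sets alone it was 1 at day 13 and 1 at day 19 (LuRKO against wild type, 0 in the fit to all arrays), 3 for wild type day 27 and 3 for wild type day 19 against day 3 (1 each), 4 for LuRKO day 19 against day 3 (2), 2 for the genotype difference from day 3 to day 27 (0) and 5 for vehicle against untreated (3). The letters A and B do not pair arrays, since the deviations of same-lettered arrays correlated at -0.19 to 0.12 over 17 comparisons. With a replicate block the number was 2 for LuRKO against wild type at day 27, 2 for wild type day 27 against day 3 and 1 for the genotype difference from day 3 to day 27, and no other count moved by over 1.5 times. The mean of a gene's probes gave 1 for LuRKO day 19 against day 3. With vehicle as the control it was 0, 0, 1, 1 and 0 at 2, 4, 8, 12 and 48 h, where the share of all genes called is given above for 48 h alone. Vehicle replicate B alone was tried too, a control chosen after the data were seen. With the 4 control arrays together the number was 3 at 4 h, 1 at 8 h, 1 at 12 h and 3 at 48 h. The cause was not tested for any of these.

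Leaving out each array in turn gave 0 to 1 genes called at day 19, 1 to 2 at day 27 and 1 to 2 averaged over ages (LuRKO against wild type). It gave 1 to 2 for wild type day 27 against day 3, 1 to 2 for wild type day 19 against day 3, 1 to 2 for LuRKO day 19 against day 3, 0 to 1 for LuRKO day 27 against day 3 and 0 to 2 for the genotype difference from day 3 to day 27. After 2.5 mg it gave 2 to 3 at 2 h, 3 to 4 at 4 h, 1 to 2 at 8 h, 1 to 2 at 12 h and 2 to 6 at 48 h, and 2 to 3 for vehicle. For 48 h against vehicle it gave 0 to 3.

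Of 28 called differences, 7 kept direction and call under every other setting tried, and 10 changed sign under at least 1. With vehicle as the control Trim30a differed by 0.07, 0.23, 0.33 and 0.07 at 2, 4, 12 and 48 h, where it was below background in both groups, Isg15 by -0.15, -0.13 and -0.04 at 8, 12 and 48 h, and Ifi27l2a by -0.29 at 4 h. With vehicle replicate B alone Trim30a differed by 0.08, 0.25, 0.34 and 0.08 at the same times, Isg15 by -0.07 and -0.06 at 8 and 12 h, and Ifi27l2a by -0.24 and Ifit3 by -0.14 at 4 h. Usp18 against untreated at 48 h lay between -0.14 and 1.88 when arrays were left out. Among uncalled differences given above, Usp18 at 48 h against vehicle was -0.02 with the mean of its probes and -0.86 to 1.16 when arrays were left out, Ifit3 at 48 h against vehicle was -0.29 to 1.86, and Ifit3 at 25 µg was -0.19 to 1.37. Of all 104 uncalled differences, 49 changed sign somewhere. On the 2.5 mg 24 h array 6 of 6 genes were at least 2-fold above the controls under each of the settings tried there, with Ifit3 at 1.79 and Usp18 at 1.42 for the mean of their probes, Irf7 at 2.37 with an offset of 16, and the control mean also taken without vehicle replicate A, a setting added after the data were seen. Levels near background, as for Irf7, Trim30a and the interferon genes, limit what the arrays can show, and 1 array at 24 h leaves no spread.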
